A study of Mus musculus with 5 samples.

Results

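Perirenal white fat (NWAT) contributed 378 stromal progenitor nuclei that carried few or no transcripts of the Dpp4-type interstitial progenitor, out of 12780 kept NWAT nuclei and 75891 kept nuclei in 5 libraries. The nuclei were chosen by measured transcripts. A nucleus needed at least 200 genes detected, at most 10% mitochondrial UMIs (unique molecular identifiers, each counting 1 captured transcript), and at least 5 UMIs summed over Pdgfra, Lama2, Bicc1, Abca8a, Col6a3, Scara5 and Fbn1 with 3 of these detected. It could hold at most 1 UMI over Acvr1c, Flt1, Ptprb, Mrc1, Upk1b, Bank1, Skap1 and Myh11, which mark other cell classes. It could also hold at most 1 UMI over Dpp4, Pi16, Sema3c, Sema3e, Cd55 and Anxa3, which mark the Dpp4 type. The same rule was applied to the other libraries, and the levels of these 21 genes are not findings.

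The study profiled nuclei of 5 white fat depots by droplet single-nucleus RNA sequencing to catalogue their cell types. NWAT was set beside subcutaneous (SWAT), epididymal (EWAT), mesenteric (MWAT) and peri-heart (HWAT) fat. All tissue came from chow-fed male mice 10 weeks old, perfused with heparin in saline. No genotype, drug or diet differed between groups. Fat was pooled from 6 mice for NWAT, 6 for SWAT, 6 for EWAT, 10 for MWAT and 20 for HWAT, so each depot was 1 library without a replicate. For SWAT and MWAT the neighbouring lymph nodes were dissected away, which the labels do not state for NWAT. The protocol gives C57BL/6J for all mice, whereas the strain field reads C57BL/8J for NWAT, C57BL/7J for MWAT and C57BL/9J for HWAT. With 1 library per depot, depot, dissection and library cannot be told apart, no test between depots was possible, and every interval below is a 95% interval of counting error only.

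Stromal progenitors of fat are Pdgfra-expressing mesenchymal cells that lie around vessels and between adipocytes. Those of the Dpp4 type sit in the fibrous interstitium and are regarded as an early reservoir, whereas cells that have lost Dpp4 and gained Pparg and Fabp4 are regarded as committed to fat cell formation. A further group marked by F3 is known for restraining adipogenesis. Progenitors of different depots also keep different sets of positional genes, chiefly Hox genes, from the embryonic region in which they arose.

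The 378 nuclei made up 2.96% of the NWAT library (95% binomial interval 2.67 to 3.27). The same rule found 774 SWAT nuclei (6.29%, interval 5.87 to 6.73) and 488 EWAT nuclei (2.64%, interval 2.41 to 2.88). It found 548 MWAT nuclei (2.77%, interval 2.55 to 3.01) and 152 HWAT nuclei (1.21%, interval 1.03 to 1.42). The NWAT share lay below that of SWAT, above that of HWAT, and overlapped those of EWAT and MWAT in its counting interval. Among the 788 stromal nuclei of NWAT, 378 lay outside the Dpp4 type (48.0%, 44.4 to 51.5), 342 held 3 or more UMIs of the Dpp4 list and were taken as the Dpp4 type, and 68 held 2 and were placed in neither. The nuclei outside the Dpp4 type were 78.1% of stromal nuclei in SWAT, 51.0% in EWAT, 63.6% in MWAT and 45.2% in HWAT. Depth was unequal: the median nucleus had 2309.5 UMIs in NWAT, against 1837 in SWAT, 1853.5 in EWAT, 1195.5 in MWAT and 1721.5 in HWAT. When each nucleus was first thinned to 1000 UMIs, the shares were 3.21% in NWAT, 4.80% in SWAT, 3.01% in EWAT, 2.41% in MWAT and 0.769% in HWAT. The UMI limits of the rule were not changed for the thinned counts, so nuclei that lost UMIs of the Dpp4 list could enter the members. In NWAT 380 nuclei then met the rule and 140 counted as the Dpp4 type, against 378 and 342 without thinning. The summed depth was 926540 UMIs in NWAT, against 1562689 in SWAT, 964775 in EWAT, 717975 in MWAT and 289292 in HWAT.

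**Figure D1:**
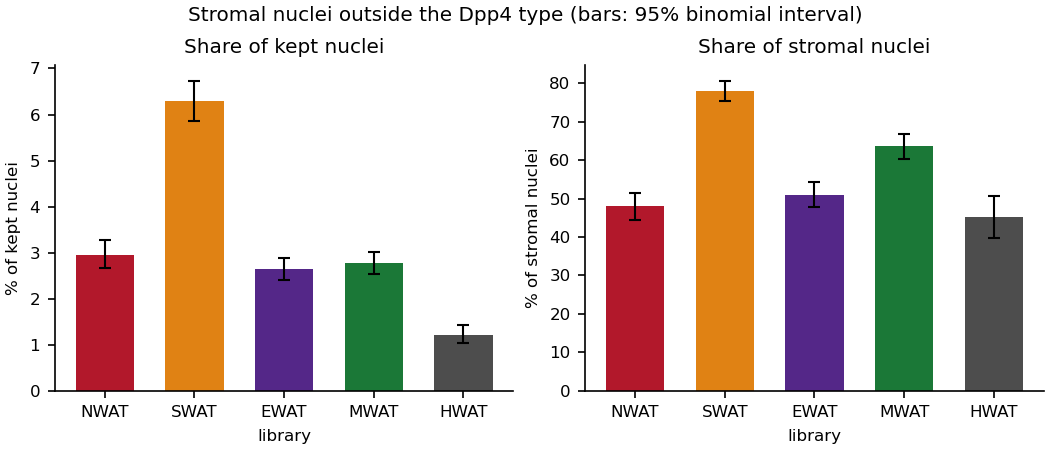
Share of nuclei that were stromal and outside the Dpp4 type, as a percentage of kept nuclei (left) and of stromal nuclei (right) in each library. Bars are single pooled libraries and error bars are exact 95% binomial intervals; NWAT stands at 2.96% of kept nuclei and 48.0% of stromal nuclei.

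The nuclei at the thresholds were set beside those just beyond them in the level of Dkk2. The 137 members with 1 UMI of the Dpp4 list had 270 CPM of Dkk2 (the count divided by all UMIs summed over the nuclei, times 1000000), and the 68 nuclei with 2 had 168. The 57 members with 1 UMI of the other-class genes had 215 CPM of Dkk2, and the 17 stromal nuclei with 2 had 26.3. The 14 members with exactly 5 stromal UMIs had 45.1 CPM of Dkk2, and the 16 nuclei with 4 had 96.1. The levels in the sets of 14, 16 and 17 nuclei rest on few UMIs and are given without intervals. Of the members, 52 (13.8%) scored as likely doublets when compared with simulated ones. They were kept, and the values without them stand in the closing section. NWAT shared 41 to 64 cell barcodes with each other library. Of the NWAT members, 1 had a barcode also seen in SWAT and 4 had one seen in MWAT, none of them in a nucleus that met the rule there.

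The label was checked against 6 markers given for these nuclei, of which Pdgfra was used to choose them. Dkk2, Sparcl1, Enpep and Col5a3 were each higher in NWAT than in every other library, and Kcnc2 was too, but Kcnc2 did not mark these nuclei within NWAT. These markers were proposed with results from these libraries known, so their levels describe the nuclei and do not test the label.

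Dkk2 encodes a secreted antagonist of Wnt signalling that binds the Lrp5 and Lrp6 co-receptors (chromosome 3, 132085292 to 132180304, plus strand, GRCm38). It had 292 CPM in NWAT (271 UMIs), against 49.3 in SWAT (77 UMIs), 19.7 in EWAT (19 UMIs), 26.5 in MWAT (19 UMIs) and 17.3 in HWAT (5 UMIs). NWAT stood alone, 5.94-fold above SWAT, the next library (4.59 to 7.75). At least 1 Dkk2 UMI was found in 35.2% of the NWAT nuclei (30.4 to 40.2) and in 0.249% of NWAT adipocyte nuclei. After each nucleus was thinned to 1000 UMIs, with 20 shallower NWAT members left out, the shares were 21.2% in NWAT, 3.39% in SWAT, 1.84% in EWAT, 0.813% in MWAT and 0.758% in HWAT. Within NWAT the gene was not limited to nuclei outside the Dpp4 type: the Dpp4 type had 238 CPM, and the endothelial nuclei 27.4 CPM.

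Sparcl1, a secreted matricellular protein related to Sparc, had 669 CPM in NWAT (618 to 724), against 216 in SWAT, 221 in EWAT, 149 in MWAT and 96.8 in HWAT. That was 3.03-fold above EWAT, the next library (2.59 to 3.56). In NWAT it had 212 CPM in the Dpp4 type, 395 CPM in endothelial nuclei and 18.0 CPM in adipocyte nuclei, so the gene was higher than in the Dpp4 type and was also high in endothelium. Enpep encodes aminopeptidase A, which cleaves angiotensin II. It had 253 CPM in NWAT, against 136 in SWAT, 119 in EWAT, 93.3 in MWAT and 27.7 in HWAT, and 84.6 CPM in the NWAT Dpp4 type. Its NWAT level was 1.85-fold above SWAT (1.53 to 2.24). The log2 difference of Enpep from the mean of the other libraries was 1.63 in the members and 1.34 in the Dpp4 type. It was 0.72 in adipocyte, 2.67 in endothelial and 1.16 in macrophage nuclei. That of Sparcl1 was 2.04 in the members, 1.97 in the Dpp4 type, 0.07 in adipocyte, 0.60 in endothelial and -0.20 in macrophage nuclei. Neither excess was limited to the members.

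Col5a3, the alpha-3 chain of the fibril-forming type V collagen, had 994 CPM in NWAT, against 695 in SWAT, 454 in EWAT, 141 in MWAT and 31.1 in HWAT. The order NWAT, SWAT, EWAT, MWAT, HWAT was without overlap of the counting intervals, and the step from NWAT to SWAT was 1.43-fold (1.31 to 1.56). In NWAT the Dpp4 type had 508 CPM and adipocyte nuclei 219 CPM. Its log2 difference from the mean of the other libraries was 2.35 in the members, 1.74 in the Dpp4 type, 1.94 in adipocyte, 1.10 in endothelial and 0.90 in macrophage nuclei. Kcnc2, a voltage-gated potassium channel, had 98.2 CPM in NWAT (91 UMIs), against 7.68 in SWAT, 10.4 in EWAT, 1.39 in MWAT and 24.2 in HWAT (7 UMIs). The ratio to HWAT was 4.06 (1.89 to 10.4). In NWAT, however, the Dpp4 type had 312 CPM and endothelial nuclei 304 CPM, and a Kcnc2 UMI was found in 11.6% of the members and 28.2% of the endothelial nuclei. Pdgfra, the receptor for platelet-derived growth factor that was part of the rule, had 898 CPM in NWAT, against 1641 in SWAT, 1177 in EWAT, 2187 in MWAT and 684 in HWAT.

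**Figure D2:**
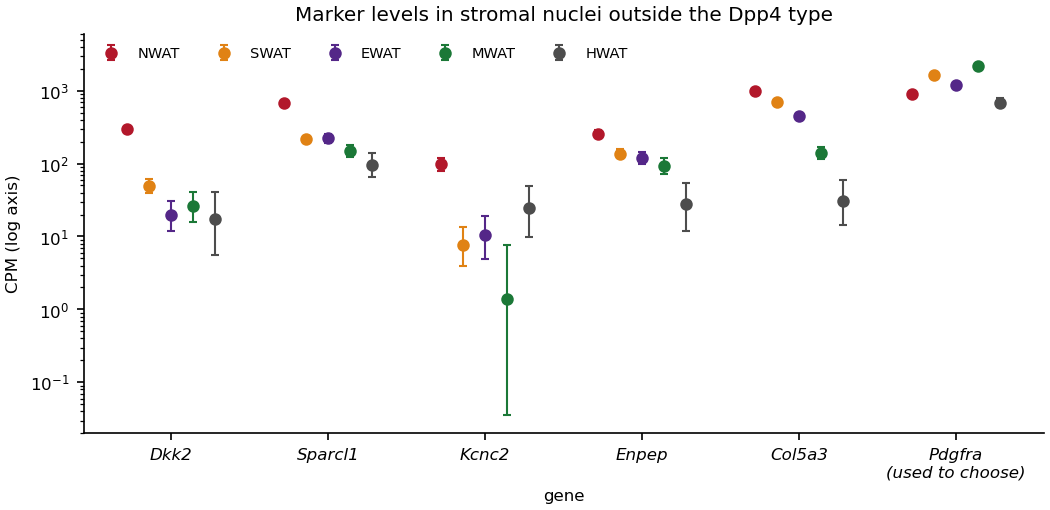
Level of the 6 given markers in stromal nuclei outside the Dpp4 type, as CPM on a log axis, 1 point per library with its exact 95% Poisson interval. NWAT is the highest point for Dkk2, Sparcl1, Kcnc2, Enpep and Col5a3, and is below SWAT, EWAT and MWAT for Pdgfra, which was used to choose the nuclei.

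Marker lists of other classes were present at unlike levels. The 5 adipocyte genes outside the rule summed to 1318 CPM in the NWAT nuclei, against 1292 in SWAT, 861 in EWAT, 656 in MWAT and 909 in HWAT. The 4 endothelial genes outside the rule summed to 98.2 CPM in NWAT, and 44.6 to 92.1 elsewhere, and the 4 macrophage genes to 39.9 CPM, and 47.4 to 96.0 elsewhere. The mural list reached 160 CPM in NWAT, against 113 in SWAT, 118 in EWAT, 447 in MWAT and 38.0 in HWAT. Over the whole NWAT library it had 68.9 CPM, so the members stood at 232% of the library level. The mesothelial list was at 31.3 CPM in NWAT, against 9.60 in SWAT, 66.3 in EWAT, 227 in MWAT and 401 in HWAT. Perirenal fat lies on the adrenal and the kidney: of the adrenal cortex list Cyp11a1, Cyp11b1, Hsd3b1 and Nr5a1 were at 0 and the sum was 5.40 CPM, and of the kidney tubule list Slc34a1, Umod, Slc12a1 and Kap were at 0 and the sum was 2.16 CPM. The macrophage list stood at 8.49% of its level over the whole NWAT library, the least of the lists with enough counts. This share was subtracted as free RNA in 1 setting, which assumes that free RNA has the composition of the whole library. The adipocyte list stood at 19.5%, the endothelial list at 18.3% and the mesothelial list at 13.1%. The share is thus no upper bound for free RNA of each source. After the subtraction the Acta1 ratio was 14.2, so that setting did not remove the muscle transcripts.

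Across all genes with at least 30 counts over the 5 libraries and outside the rule, 506 of 11236 (4.50%) were 2-fold or more above the mean of the other libraries in NWAT and 797 (7.09%) were 2-fold or more below it. Of the same genes, 46 (0.409%) were 2-fold or more above every other library and 227 (2.02%) were below every other. Counts of lists below are set against these shares. UMI counts below are not scaled to depth, which was 926540 in NWAT, 1562689 in SWAT and 289292 in HWAT. A like count therefore stands for a higher level in HWAT than in NWAT, and for a lower one in SWAT.

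Of the 11 genes whose ratio to the next highest library had a lower bound above 2, 7 belonged to skeletal muscle fibres: Acta1, Tnnt3, Mylpf, Tnnc2, Ckm, Myh4 and Tcap. Acta1, skeletal muscle actin, had 163 UMIs (176 CPM) in NWAT, against 6 in SWAT, 3 in EWAT, 1 in MWAT and 0 in HWAT. Tnnc2, a fast-fibre troponin, had 113 UMIs in NWAT and 0 in SWAT, EWAT, MWAT and HWAT. These genes were not particular to the progenitors. In NWAT, Acta1 had 176 CPM in the members, 141 CPM in the Dpp4 type, 143 CPM in adipocyte, 147 CPM in endothelial, 116 CPM in macrophage and 106 CPM in mesothelial nuclei, and a single member held 55 of the 163 UMIs. The whole list of 5 muscle genes summed to 392 CPM in NWAT, against 4.48 in SWAT, 3.11 in EWAT, 11.1 in MWAT and 24.2 in HWAT. With the members holding 3 or more UMIs of that list left out, which kept 367, Acta1 was still at least 7.40-fold above HWAT, whose 0 counts were taken as 3. Tcap, which caps titin, had a ratio of 1.503 without those members and 0.51 when the nuclei were chosen after thinning. Myh4, a fast myosin heavy chain, had 0 UMIs in SWAT, EWAT, MWAT and HWAT. Its ratio of at least 6.45 took HWAT at 3 counts. That ratio was 1.37 after thinning, 1.63 with 0 UMIs of the Dpp4 list allowed and 1.94 with 0 UMIs of other-class genes allowed. Fewer HWAT nuclei were kept in those settings (77, 94 and 115, against 152), which can raise the level that 3 counts stand for. Values under 2 therefore do not show that the Myh4 excess was lost. After thinning the ratio of Acta1 was 3.85, against 16.96 with the rule as given, and those of Tnnt3, Mylpf, Tnnc2 and Ckm were 2.22 to 3.12. With the rule as given, these ratios also took HWAT at 3 counts.

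The other 4 of the 11 were Dkk2, Sparcl1, Cd300lg and Gsn. Gsn encodes gelsolin, which severs and caps actin filaments. It had 11226 CPM in NWAT, against 5421 in SWAT, 4923 in EWAT, 3475 in MWAT and 2413 in HWAT, a ratio to SWAT of 2.07 (2.01 to 2.13). The ratio fell below 2-fold in some settings, to 1.94 with TMM factors, 1.97 with free RNA subtracted and 1.89 with nuclei chosen after thinning. The NWAT Dpp4 type had 5735 CPM and adipocyte nuclei 1201 CPM, and 371 of the 378 members held a Gsn UMI. Cd300lg is a lectin-like receptor of capillary endothelium. It had 124 CPM in NWAT, against 39.0 in SWAT, 25.9 in EWAT, 12.5 in MWAT and 3.46 in HWAT, but 898 CPM in NWAT endothelial nuclei. Its ratio to SWAT was 3.18, and 1.88 with nuclei chosen after thinning. Its log2 difference was 2.93 in the members, 2.12 in the Dpp4 type, 1.33 in adipocyte, 1.74 in endothelial and 0.33 in macrophage nuclei. Its level in the members therefore stood beside an endothelial list of 98.2 CPM, and the part of endothelial transcripts in it was not tested.

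Downwards, 9 genes met the same limits. They included the ribosomal protein genes Rps28, Rpl38, Rpl39 and Rpl37, Sec61g of the protein translocation channel and Tmsb10, which binds actin monomers. Rpl38 had 254 CPM in NWAT, against 729 in SWAT, 699 in EWAT, 964 in MWAT and 1383 in HWAT. Its log2 difference from the mean of the other libraries was -1.84 in the members, -1.86 in the Dpp4 type, -2.14 in adipocyte, -1.83 in endothelial and -1.38 in macrophage nuclei. Like differences in every class were found for Tmsb10, with -1.34 in the members, -1.64 in the Dpp4 type, -2.21 in adipocyte, -1.81 in endothelial and -1.72 in macrophage nuclei. These transcripts were thus low in each NWAT class measured.

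C7 and Csmd1, both linked to complement, were also among them. C7, a component of the membrane attack complex, had 120 CPM in NWAT, against 308 in SWAT, 950 in EWAT, 908 in MWAT and 411 in HWAT. Its NWAT level was 0.39 of that in SWAT, the lowest of the others (upper bound 0.48), and the NWAT Dpp4 type had the same 120 CPM. Csmd1 encodes a membrane protein that inhibits complement. It had 43.2 CPM in NWAT, against 325 in SWAT, 251 in EWAT, 128 in MWAT and 460 in HWAT, and 124 CPM in the NWAT Dpp4 type. Csmd1 was no longer 2-fold below every library when clusters led by mural and Schwann genes were left out, with a ratio of 0.54 to the lowest.

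Hox genes encode the transcription factors that specify position along the body axis, with low numbers acting towards the head and high numbers towards the tail. Of 39 Hox genes, 17 had enough counts to compare, and 16 had 0 counts in NWAT. Above the mean of the other libraries by 2-fold or more were 8 of the 17, against 4.50% of all genes, and all 8 belonged to the HoxA and HoxC clusters. Below it by 2-fold or more were 5, against 7.09% of all genes, and all 5 belonged to HoxB. The median log2 difference of the list was 0.52, against 0.07 for all genes. It moved with the filter, to 1.46 with at least 100 counts and -0.24 with no count minimum, and was 1.28 with 8 stromal UMIs required and 1.42 with MWAT left out.

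Hoxa9 (chromosome 6, 52223100 to 52231089, minus strand, GRCm38) had 85 UMIs in NWAT (91.7 CPM), against 133 in SWAT (85.1 CPM), 4 in EWAT (4.15 CPM), 0 in MWAT and 0 in HWAT. Hoxa10 followed with 26 UMIs in NWAT and 51 in SWAT, and 0 in EWAT, MWAT and HWAT. Hoxc10 had 22 UMIs in NWAT, 64 in SWAT, 1 in EWAT and 0 in MWAT and HWAT. NWAT and SWAT thus shared these posterior genes, and Hoxa9 did not differ between them beyond counting error (ratio 1.08, 0.81 to 1.43). Hoxa9 was also present in NWAT adipocyte nuclei (73.2 CPM), in the Dpp4 type (52.8 CPM) and, lower, in endothelial nuclei (28.5 CPM).

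The HoxB cluster set NWAT apart from SWAT. The 10 HoxB genes summed to 21.6 CPM in NWAT, against 97.9 in SWAT, 113 in EWAT, 274 in MWAT and 41.5 in HWAT. Hoxb4 had 2 UMIs in NWAT, against 19 in SWAT, 18 in EWAT, 42 in MWAT and 5 in HWAT. Summed HoxA was 296 CPM in NWAT, against 198 in SWAT, 181 in EWAT, 153 in MWAT and 121 in HWAT. Summed HoxC was 328 CPM in NWAT, against 305 in SWAT, 202 in EWAT, 107 in MWAT and 58.8 in HWAT, and HoxD held 2 UMIs in NWAT.

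Among 27 other developmental regulators compared, 6 were 2-fold or more above the mean of the other libraries and 7 were below it. Over all genes the shares were 4.50% and 7.09%. Pax3, a paired-box factor of the dermomyotome and its derivatives, had 39 UMIs in NWAT (42.1 CPM), against 3 in SWAT and 0 in EWAT, MWAT and HWAT. It was 21.9-fold above SWAT, a ratio that rests on 3 UMIs there, and at least 4.06-fold above HWAT, where 0 counts were taken as 3. At least 1 Pax3 UMI was found in 8.20% of the NWAT members (5.64 to 11.4), in 1.51% of NWAT adipocyte nuclei and in none of the endothelial ones. The NWAT Dpp4 type held 17 Pax3 UMIs (18.7 CPM). The log2 difference of Pax3 from the mean of the other libraries was 5.29 in the members, 4.01 in the Dpp4 type and 5.56 in adipocyte nuclei, so the excess was not limited to the members. En1, a homeobox factor also used in the dermomyotome and limb ectoderm, had 13 UMIs in NWAT, 37 in SWAT and 0 elsewhere. Hand2, a factor of lateral and visceral mesoderm, had 0 UMIs in NWAT, against 0 in SWAT, 3 in EWAT, 42 in MWAT and 2 in HWAT. Osr2, an odd-skipped factor of mesenchyme, had 0 UMIs in NWAT, against 32 in SWAT, 3 in EWAT, 4 in MWAT and 3 in HWAT.

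**Figure D3:**
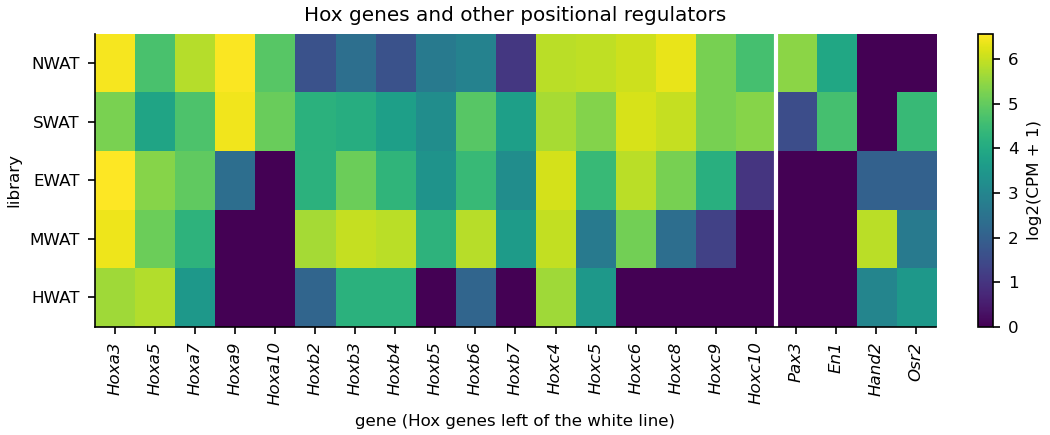
Level of the 17 Hox genes compared and 4 other positional regulators in stromal nuclei outside the Dpp4 type, as log2(CPM + 1) in each library (rows). NWAT holds Hoxa9, Hoxa10 and Hoxc10 together with SWAT, has Pax3 at 42.1 CPM, and is low for the HoxB genes.

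The structural genes leaned upwards. Of 26 collagen genes compared, 9 were 2-fold or more above the mean of the other libraries and 5 below. The shares over all genes were 4.50% and 7.09%. The median log2 difference of the collagens was 0.64. Besides Col5a3, Col4a2, a chain of basement membrane collagen, had 847 CPM in NWAT, against 513 in SWAT, 572 in EWAT, 210 in MWAT and 104 in HWAT. It was 1.48-fold above EWAT (1.33 to 1.65). Going the other way, Col8a1, a short-chain collagen of vessel walls, had 3 UMIs in NWAT, against 11 in SWAT, 46 in EWAT, 40 in MWAT and 21 in HWAT. Col11a1, a fibrillar collagen best known from cartilage, had 0 UMIs in NWAT, against 35 in SWAT, 4 in EWAT, 9 in MWAT and 5 in HWAT.

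The collagen median was also 0.60 in the NWAT Dpp4 type, and -0.09 in adipocyte, -0.30 in endothelial and -0.46 in macrophage nuclei. Of 45 matricellular and elastic fibre genes, 9 were above by 2-fold or more and 3 below, with a median of 0.44. Over all genes 4.50% were above and 7.09% below, so the 3 below are near the general share. Nid1, which links laminin to type IV collagen in basement membranes, had 841 CPM in NWAT, against 350 in SWAT, 500 in EWAT, 343 in MWAT and 214 in HWAT. It was 1.68-fold above EWAT, and the NWAT Dpp4 type had 1185 CPM. Mfap4, a microfibril-associated glycoprotein, had 0 UMIs in NWAT and SWAT, against 16 in EWAT, 38 in MWAT and 12 in HWAT. Fmod, a proteoglycan that binds collagen fibrils, had 3 UMIs in NWAT, 6 in SWAT, 7 in EWAT, 10 in MWAT and 7 in HWAT.

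Adipogenic and lipid genes were compared next, since Dpp4-negative progenitors are held to be nearer to fat cells. Of 36 genes, 7 were 2-fold or more above the mean of the other libraries and 2 below, with a median log2 difference of 0.46. Over all genes the shares were 4.50% above and 7.09% below. Plin2, a lipid droplet coat protein, had 598 CPM in NWAT, against 358 in SWAT, 182 in EWAT, 90.5 in MWAT and 51.9 in HWAT, 1.67-fold above SWAT (1.48 to 1.88). Lpl, which frees fatty acids from lipoproteins, had 1862 CPM in NWAT, against 1438 in SWAT, 816 in EWAT, 281 in MWAT and 235 in HWAT. It was 1.29-fold above SWAT (1.22 to 1.38).

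Both genes were 2-fold or more above the NWAT Dpp4 type, which had 201 CPM of Plin2 and 859 CPM of Lpl. NWAT adipocyte nuclei had 186 CPM of Plin2 and 3150 CPM of Lpl, and the part of adipocyte transcripts in the members' Lpl was not tested. Cebpb and Cebpd, transcription factors induced early in adipogenesis and by stress, went the other way. Cebpb had 5 UMIs in NWAT, against 191 in SWAT, 86 in EWAT, 57 in MWAT and 7 in HWAT. Cebpd had 45.3 CPM in NWAT, against 143 in SWAT, 276 in EWAT, 263 in MWAT and 41.5 in HWAT, level with HWAT. Both were low in every NWAT class measured. The log2 difference of Cebpb was -3.54 in the members, -3.11 in the Dpp4 type, -3.92 in adipocyte, -2.78 in endothelial and -4.08 in macrophage nuclei, and that of Cebpd was -1.67 in the members and -1.83 to -2.88 in the other classes. The committed preadipocyte list, led by Fabp4, summed to 11202 CPM in NWAT, against 12961 in SWAT, 7218 in EWAT, 5102 in MWAT and 7435 in HWAT. Fabp4 alone had 9857 CPM in the NWAT members, and 5169 CPM in NWAT macrophage and 4953 CPM in mesothelial nuclei. Pparg and Cd36 had 463 and 593 CPM in the members and 1162 and 4247 CPM in endothelial nuclei. The sum was therefore not particular to progenitors.

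Immediate early genes, which are transcribed within minutes of stress or growth signals, were the lowest list. None of 23 was 2-fold above the mean of the other libraries and 13 were 2-fold or more below it, against 7.09% of all genes, with a median log2 difference of -1.28. Fos had 12 UMIs in NWAT, against 276 in SWAT, 35 in EWAT, 17 in MWAT and 33 in HWAT. Jund, its partner in the AP-1 factor, had 9 UMIs in NWAT, against 406 in SWAT, 123 in EWAT, 109 in MWAT and 7 in HWAT. At the lower depth of HWAT, the 7 UMIs there stand for a higher level than the 9 in NWAT. Atf3, a stress-induced repressor, had 0 UMIs in NWAT, and Hspa1b, an inducible heat shock protein, had 2. The same median was -1.42 in the NWAT Dpp4 type, -1.13 in adipocyte, -0.85 in endothelial and -0.91 in macrophage nuclei, so these genes were low in every NWAT class measured.

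**Figure D4:**
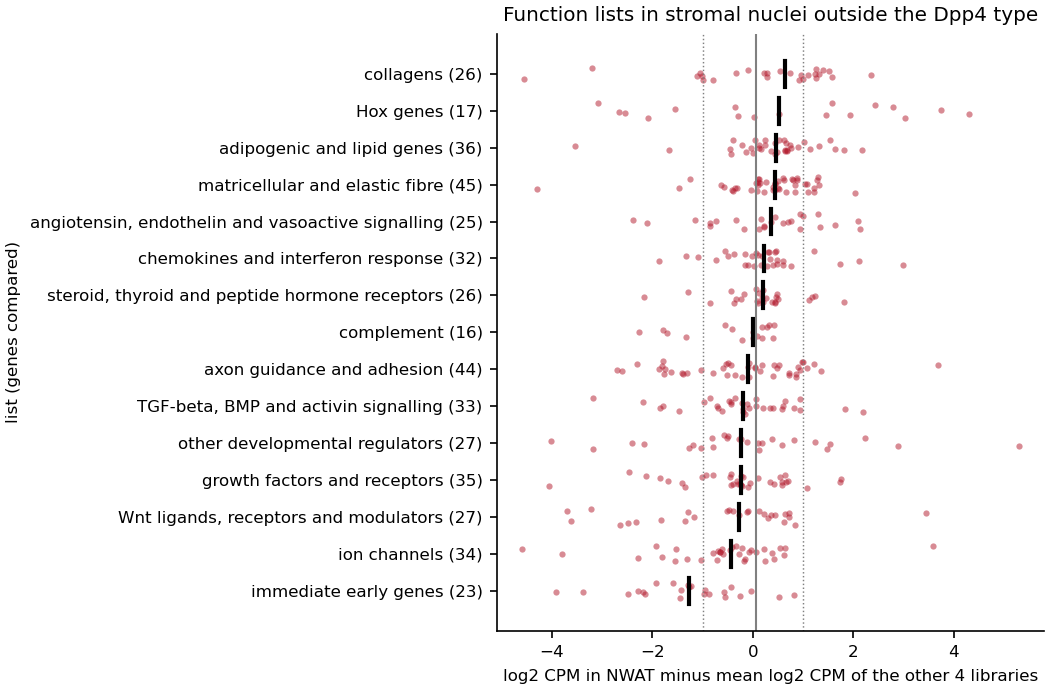
Log2 CPM in NWAT minus the mean log2 CPM of the other 4 libraries, for each gene compared (points) in 15 function lists. Black bars are list medians, the solid grey line is the median of all genes (0.07) and dotted lines mark 2-fold; collagens stand at 0.64 and immediate early genes at -1.28.

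More genes of the Wnt, TGF-beta and growth factor lists were 2-fold lower than 2-fold higher. The same held over all genes, with 7.09% below and 4.50% above. In the Wnt list, Dkk2 was the 1 gene of 27 that was 2-fold above the mean of the other libraries, and 10 were 2-fold or more below it, with a median of -0.27, which was 0.17 with MWAT left out. Rspo1, a secreted enhancer of Wnt signalling, had 3 UMIs in NWAT, against 11 in SWAT, 41 in EWAT, 37 in MWAT and 27 in HWAT. Lgr5, a receptor for R-spondins, had 0 UMIs in NWAT, against 8 in SWAT, 0 in EWAT, 8 in MWAT and 16 in HWAT. Dkk3, a divergent Dickkopf family protein, had 1 UMI in NWAT, against 14 in SWAT, 7 in EWAT, 46 in MWAT and 12 in HWAT. NWAT mesothelial nuclei had 492 CPM of Rspo1 and 110 CPM of Dkk3. The mesothelial list in the members was at 31.3 CPM in NWAT, 9.60 in SWAT, 66.3 in EWAT, 227 in MWAT and 401 in HWAT. The part of mesothelial transcripts in the counts of Rspo1 and Dkk3 was not tested. The NWAT Dpp4 type, where Dkk2 had 238 CPM, had 34 UMIs of Rspo1 (37.4 CPM) and 0 of Lgr5.

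Of 33 genes of TGF-beta, BMP and activin signalling, 2 were above by 2-fold or more and 5 below, with a median of -0.19, which was 0.026 with MWAT left out. Bmpr1b, a type I BMP receptor, had 4 UMIs in NWAT, against 13 in SWAT, 40 in EWAT, 38 in MWAT and 3 in HWAT. Bmp5, a BMP ligand, had 17 UMIs in NWAT, against 4 in SWAT, 16 in EWAT, 2 in MWAT and 0 in HWAT, level with EWAT (ratio 1.11, 0.53 to 2.34). Fstl3, a follistatin-like antagonist of activin, had 2 UMIs in NWAT and 4 to 11 in the other libraries.

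Of 35 growth factors and receptors, 3 were above by 2-fold or more and 8 below, with a median of -0.25. Vegfa, the main angiogenic factor, had 14 UMIs in NWAT (15.1 CPM), against 229 in SWAT (147 CPM), 65 in EWAT (67.4 CPM), 56 in MWAT (78.0 CPM) and 20 in HWAT (69.1 CPM). Kitl, the ligand of Kit, had 27.0 CPM in NWAT, against 97.9 in SWAT, 61.2 in EWAT, 355 in MWAT and 93.3 in HWAT. For both, the interval of the ratio to the lowest of the other libraries lay below 1. Il33, an alarmin that fat stroma supplies to regulatory T cells, had 2 UMIs in NWAT, against 12 in SWAT, 15 in EWAT, 69 in MWAT and 94 in HWAT. Igfbp7, a secreted IGF-binding protein, had 314 CPM in NWAT, against 1467 in SWAT, 1964 in EWAT, 1532 in MWAT and 363 in HWAT, and did not differ from HWAT beyond counting error. Its log2 difference was -1.84 in the members and -1.82 to -2.54 in the other NWAT classes.

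Hormone-related genes were highest in different libraries. Of 26 steroid, thyroid and peptide hormone receptors and related enzymes, 4 were above by 2-fold or more and 2 below, with a median of 0.19. Over all genes 4.50% were above and 7.09% below. Esr1, the oestrogen receptor alpha, had 508 CPM in NWAT, against 619 in SWAT, 187 in EWAT, 61.3 in MWAT and 58.8 in HWAT, 0.82 of the SWAT level (0.73 to 0.92). Hsd11b1, which makes active glucocorticoid, had 247 CPM in NWAT, against 116 in SWAT, 226 in EWAT, 44.6 in MWAT and 100 in HWAT, and did not differ from EWAT beyond counting error (ratio 1.09, 0.91 to 1.32). Ramp1, a co-receptor for CGRP, had 6 UMIs in NWAT, against 15 in SWAT, 32 in EWAT, 93 in MWAT and 6 in HWAT. The equal counts of NWAT and HWAT stand for a higher level in HWAT, which had fewer UMIs in all. Lepr, the leptin receptor, had 2 UMIs in NWAT, against 1 in SWAT, 2 in EWAT, 24 in MWAT and 6 in HWAT.

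Of 25 angiotensin, endothelin and vasoactive genes, 5 were above by 2-fold or more and 3 below, with a median of 0.36. Over all genes 4.50% were above and 7.09% below. Mme, the peptidase neprilysin, had 155 CPM in NWAT, against 225 in SWAT, 19.7 in EWAT, 11.1 in MWAT and 31.1 in HWAT. Adra1a, an alpha-1 adrenergic receptor, had 35.6 CPM in NWAT, against 6.40 in SWAT, 3.11 in EWAT, 109 in MWAT and 0 in HWAT. Edn1, the vasoconstrictor endothelin-1, had 5 UMIs in NWAT, against 32 in SWAT, 51 in EWAT, 16 in MWAT and 10 in HWAT, and its level was 5.40 CPM in the NWAT members, against 133 CPM in the NWAT Dpp4 type. Ptgs1, the constitutive cyclooxygenase, had 3 UMIs in NWAT and 8 to 19 in the other libraries.

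Of 16 complement genes, none was 2-fold above the mean of the other libraries and 4 were below, with a median of -0.00. Over all genes 4.50% were above and 7.09% below, so none of 16 above is near the general share. Besides C7, C1qtnf7 had 64.8 CPM in NWAT, against 103 in SWAT, 406 in EWAT, 242 in MWAT and 256 in HWAT. C4b had 65.8 CPM in NWAT, against 210 in SWAT, 118 in EWAT, 89.1 in MWAT and 346 in HWAT. NWAT was below EWAT for C7, C1qtnf7 and C4b, and nearest to MWAT for C4b.

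Of 32 chemokine and interferon response genes, 4 were above by 2-fold or more and 3 below, with a median of 0.23. Over all genes 4.50% were above and 7.09% below. Cxcl9, an interferon-gamma-induced attractant of T cells, had 50 UMIs in NWAT, against 54 in SWAT, 10 in EWAT, 0 in MWAT and 2 in HWAT, and a single member held 10 of the 50. Cxcl13, which attracts B cells, had 406 CPM in NWAT, against 125 in SWAT, 1.04 in EWAT, 117 in MWAT and 3398 in HWAT. One NWAT member held 64 of its 376 UMIs. Ccl2, which attracts monocytes, had 9 UMIs in NWAT, against 62 in SWAT, 84 in EWAT, 7 in MWAT and 15 in HWAT.

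Genes of axon guidance, adhesion and ion transport were more often 2-fold lower than higher, as were all genes (7.09% below and 4.50% above). Of 44 guidance and adhesion genes, 4 were above by 2-fold or more and 13 below, with a median of -0.09. Cdh9, a classical cadherin, had 54 UMIs in NWAT, against 123 in SWAT, 0 in EWAT, 1 in MWAT and 1 in HWAT, and did not differ from SWAT beyond counting error (ratio 0.74, 0.53 to 1.03). Plxna4, a semaphorin receptor, had 6 UMIs in NWAT, against 7 in SWAT, 58 in EWAT, 103 in MWAT and 29 in HWAT. Sema3d, a secreted semaphorin, had 5 UMIs in NWAT, against 24 in SWAT, 21 in EWAT, 68 in MWAT and 6 in HWAT. Of 34 ion channel genes, Kcnc2 was the 1 that was 2-fold above the mean of the others and 9 were below, with a median of -0.44. Kcnn3, a small-conductance calcium-activated potassium channel, had 0 UMIs in NWAT, against 0 in SWAT, 9 in EWAT, 412 in MWAT and 0 in HWAT, and Kcnip1, a potassium channel partner, had 0 in NWAT and 59 in MWAT. MWAT thus held most of the counts of both. Of the MWAT nuclei, 156 of 548 (28.5%) formed a joint cluster led by Robo2 and Kcnn3 that held no nucleus of another library, so the MWAT set differed from the others in this group of nuclei.

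Within NWAT, the nuclei outside the Dpp4 type were set beside the 342 nuclei of the Dpp4 type. The split was made by measured genes, so these differences are a description. Of 8508 genes with enough counts, 263 (3.09%) were 2-fold or more higher outside the Dpp4 type and 397 (4.67%) were 2-fold or more lower. Of the genes past the limits on counts and interval, 58 were higher and 150 lower, and the 10 highest and 5 lowest are named.

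Pappa, a protease that frees IGF from its binding proteins, had 145 CPM outside the Dpp4 type (134 UMIs) and 13.2 CPM in it (12 UMIs), a ratio of 10.97 (6.07 to 21.8). Cxcl14, a chemokine of stromal cells, had 100 CPM outside and 9.89 CPM in the Dpp4 type, a ratio of 10.1 (5.12 to 22.9). Olfm2, an olfactomedin-domain protein, had 57 UMIs outside and 3 in the Dpp4 type, and Lypd1, a GPI-anchored modulator of nicotinic receptors, had 44 and 3. Eya1, a transcriptional co-activator that works with sine oculis homeobox factors, had 43 UMIs outside and 4 in the Dpp4 type.

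The long non-coding transcript 4930502A04Rik had 38 UMIs outside and 0 in the Dpp4 type, at least 12.4-fold higher with the 0 taken as 3 counts. With nuclei chosen after thinning the ratio was 3.58 for 4930502A04Rik, 4.03 for Olfm2 and 4.25 for Lypd1. In that setting nuclei that had lost UMIs of the Dpp4 list could count as outside the Dpp4 type. Adra1a had 33 UMIs outside and 2 in the Dpp4 type. Pdgfrl, a secreted protein resembling the PDGF receptor, had 32 and 4, and Tiam2, an activator of Rac, had 56 and 8. Rgs5, a pericyte regulator of G-protein signalling, had 33 UMIs outside and 1 in the Dpp4 type, but 7 members with mural genes held 23 of the 33. Its ratio was 1.81 when clusters led by genes of other classes were left out.

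On the lower side, Opcml, a GPI-anchored adhesion protein, had 36.7 CPM outside the Dpp4 type (34 UMIs) and 1194 CPM in it (1086 UMIs), a ratio of 0.03. Limch1, an actomyosin regulator, had 6 UMIs outside and 260 in the Dpp4 type. Adamts16, an extracellular protease, had 2 and 114. Ano3, an anoctamin, had 2 and 100, and Efhd1, a mitochondrial calcium-binding protein, had 3 and 99. Of the lists, matricellular and elastic fibre genes had 8 of 39 higher outside the Dpp4 type and 5 lower, adipogenic and lipid genes 5 of 32 higher and 2 lower, and guidance and adhesion genes 3 of 38 higher and 15 lower. None of the 11 Hox genes compared differed 2-fold in either direction. Over all genes 3.09% were higher and 4.67% lower, so none of 11 is near the general share.

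The 378 nuclei were clustered to describe how they varied. At resolution 0.5 they formed 5 groups, and the genes that lead a group also made it, so they are no findings. The largest held 172 nuclei (45.5%) and was led by Mylk4, Trdn, Atp2a1, S100a9 and Ppp1r27. All but S100a9 are muscle genes, and at resolution 1 the muscle genes fell to a separate group of 2 nuclei. The second held 133 nuclei (35.2%) and had Fasn, Ndufs8, Scd1 and Qpct among its leading genes. Both stayed unnamed. Their Dkk2 levels were 403 and 246 CPM and their Pparg levels 490 and 543 CPM.

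The third group held 55 nuclei (14.6%, 11.2 to 18.5), of which 13 were likely doublets, and was led by Sult1e1, Sntg1, Mgp, Hmcn1 and C7. All 5 markers of the regulatory F3 type were 2-fold or more higher in it than in the other groups, with F3 at 623 CPM against 173 and 240 CPM in the first 2 groups, and it was called F3-type-like. The name holds for fewer nuclei at resolution 1, where 12 nuclei led by Fmo2 had all 5 markers 2-fold higher and 44 nuclei led by Sult1e1 had 3 of 5. Within the 55 nuclei, Mgp and Gdf10 were each seen in 25.5%, Fmo2 in 29.1% and Clec11a in 5.45% (5 UMIs). Fmo2 and Mgp also had 762 and 343.5 CPM in NWAT mesothelial nuclei, and 260 and 544 CPM in endothelial nuclei. The third group had 123 CPM of Dkk2, 65.2 CPM of Enpep and 275 CPM of Col5a3, and 159 CPM of Pparg, lower than the first 2 groups in each. A group of 11 nuclei, of which 5 were likely doublets, was led by Ctcflos, St6galnac5, Nrg4, Fam13a and Adipor2, had 755 CPM of Plin1 and stayed unnamed. The last held 7 nuclei led by Abcc9, Kcnj8, Rnf152, Rgs5 and Cacna1c. It was mural-like by Rgs5, Notch3, Kcnj8 and Abcc9. The other mural marker, Myh11, was limited by the rule and had 1 UMI in these nuclei. Pdgfra stood at 77.0 CPM in them, on 2 UMIs. Summed over the 5 F3-type markers, the members had 491 CPM in NWAT, against 465 in SWAT, 1414 in EWAT, 2135 in MWAT and 2513 in HWAT.

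When the nuclei of all 5 libraries that met the rule were clustered together, without integration, they split mainly by library. Of the NWAT nuclei, 295 (78.0%) fell in 1 cluster that held 311 nuclei in all, and 21 (5.56%) in the cluster that took 82.0% of EWAT. A further 18 (4.76%) lay in the cluster that took 80.5% of SWAT. The NWAT cluster was led by Acta1, Tnnt3, Tnnc2, Mylpf, Ckm, Dkk2, Myh4 and Kcnc2, so the muscle transcripts found in every NWAT class were among the genes that set it apart. A cluster made mostly of 1 library may be that library and not a type. One cluster with 6 NWAT nuclei was led by mural genes and one with 2 by Schwann cell genes. Leaving both out kept 370 NWAT nuclei and a Dkk2 ratio to SWAT of 5.85.

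**Figure D5:**
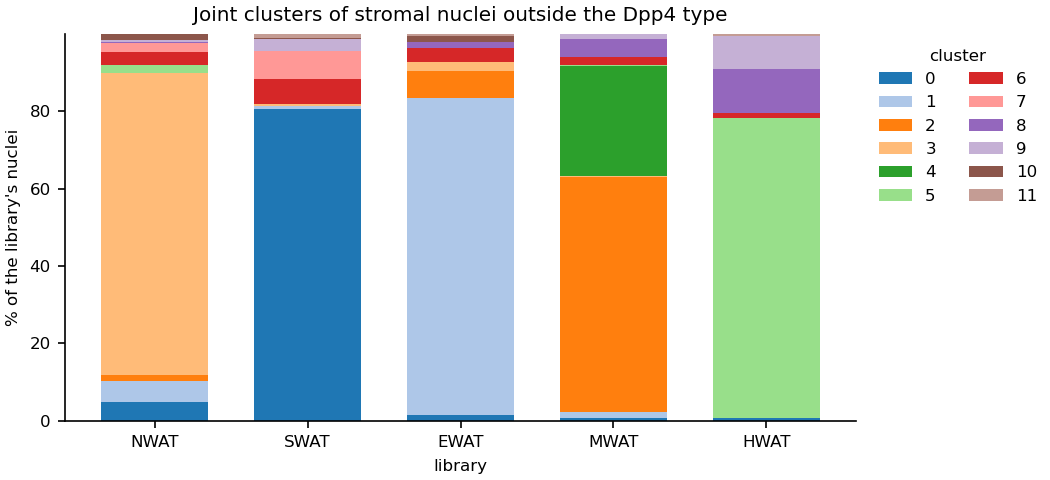
Share of each library's stromal nuclei outside the Dpp4 type that fell in each of 12 joint clusters, as a percentage of that library's nuclei. NWAT has 78.0% of its nuclei in cluster 3, which holds few nuclei of any other library.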

How the data were processed

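The members, gene lists and alternatives were chosen with earlier results of these data known. The deposited files hold raw UMI counts per gene and nucleus, which the authors produced on mm10, per the submitters' processing notes, using Cell Ranger 6.0.1, as the file headers state. Each lists 32285 genes, and every barcode had 500 UMIs or more. Filters at 200 genes and 10% mitochondrial UMIs removed 149 of 76040 nuclei. Counts were summed over the nuclei of a class and library and scaled to CPM. Log2 differences used 0.5 added counts and the mean of the other 4 libraries. Ratios took a library under 3 counts as 3 counts. Intervals are exact (Clopper-Pearson, Poisson, or conditional binomial for ratios) at 95%, and cover counting error only. A total of 11236 genes with at least 30 counts, outside the rule, were compared.

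The genes named had the largest ratios to the next library (up to 15 above and 10 below, each with 30 counts and the interval past 2-fold), the 10 highest and 5 lowest against the Dpp4 type by the same limits, the 6 given markers, the 4 largest differences of each of 15 lists, and the leading genes of each sub-cluster. A few genes that met these limits are not reported here. Other classes took 5 UMIs over 3 markers and 80% of all marker UMIs. Likely doublets, scored against simulated ones, were kept. Clustering used 2000 variable genes, 20 components and 15 neighbours (30 and 20 for the joint clustering) with leidenalg 0.10.2. Work was done in Python 3.11.15 with numpy 2.4.6, scipy 1.17.1 and scikit-learn 1.9.0. The comparison code was tested on simulated data. Gene positions came from GENCODE vM21 (GRCm38), matched by identifier for 92 of 92 named genes. No sequence is shown, since transcript counts per gene bear on none.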

Additional observations from a re-analysis of the deposited data

How the results depend on the processing

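With 1 library per depot there was no replicate to leave out, and no paired analysis was possible because the result comes from no test. Of 19 settings tried, 16 or 18 applied to each of 41 named ratios, in which Dkk2 and Sparcl1 were each entered more than once. The direction was kept by 40 of the 41, with Tcap the exception at 0.51 when nuclei were chosen after thinning. Some settings could not move a ratio: Acta1 stayed at 16.96 and Dkk2 at 5.94 with another count minimum or more counts added. Genes named only from the function lists were not among these ratios. Dkk2 stayed 4.81-fold to 7.73-fold above the next library. The share of NWAT nuclei was 2.62% with 8 stromal UMIs, 2.51% with 0 UMIs of other-class genes and 1.89% with 0 UMIs of the Dpp4 list. Genes above every other library numbered 26 with 8 stromal UMIs, 19 after thinning, 23 with 100 counts and 95 without HWAT, and 87 were below every other with 100 counts. Above the mean of the others were 233 with 100 counts, 1607 with no minimum and 286 with 2 counts added, and below it 351 with 100 counts and 3176 with no minimum. Against the Dpp4 type, 434 were higher after thinning, 82 with 100 counts and 2428 with no minimum, and 173 were lower with 100 counts and 2738 with no minimum. The Hox median was 1.28 with 8 stromal UMIs, 1.46 with 100 counts, 1.42 without MWAT and -0.24 with no minimum. Without MWAT the Wnt median was 0.17 and the TGF-beta median 0.026. Taking counts under 3 as 3 moved the list medians by at most 0.24, to -0.48 for other developmental regulators, with no change of sign but for complement (0.00). Resolution 1 gave 9 sub-clusters with 26.7% in the largest. The causes were not tested. Genes under about 30 UMIs in NWAT have wide counting intervals, and HWAT, with 152 nuclei, limits the ratios of low genes.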
